A study of Arabidopsis thaliana with 2 samples.

Results

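The genes described here are 10 regulators of seed maturation, measured in the embryo proper and the suspensor of the globular Arabidopsis thaliana embryo. They were chosen by locus from the network around LEC1, FUS3 and ABI3, not by a threshold on their values. Earlier results of these data were known at the time. Of the 10, 9 are among the 20029 genes listed in either of the 2 libraries. The embryo proper is the apical part, which becomes the seedling; the suspensor is a basal stalk through which it is attached to and fed by the seed. Both groups come from plants of the accession Ws-0, for which the labels name no mutation or treatment, taken from siliques of 1.1 to 1.4 cm on plants 38 to 46 days old, and the regions were cut by laser from seeds whose embryo measured 24 to 32 μm across. Each group is 1 library, and the labels do not state how many seeds it drew on, so no test was run and the values describe these captures alone.

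The authors deposited each level as RPKM, a count of reads scaled to gene length and library size. The embryo proper library rested on 12715900 reads and the suspensor library on 7189100, both recovered from the step size of the values. Ranges after a level or a fold are 95% exact intervals from the recovered reads; the RNA was amplified and carried no molecular identifiers, so they cover counting error and nothing else. The markers of each labelled tissue were higher in its own library. A gene is called embryo-high or suspensor-high where the named library exceeded the other by 2-fold or more on a log2 scale after adding 1 RPKM and at least 1 library reached 1 RPKM; the added 1 makes the differences of low genes look smaller. All 7 embryo proper markers were embryo-high, with a summed level of 915 RPKM against 18.2, and all 6 suspensor markers were suspensor-high, with 440 RPKM against 33.5. The marker lists were chosen with earlier results of these data known, so these counts are no test of the labels. The summed markers of the neighbouring seed tissues were also higher in the suspensor library. Whether that RNA came from captured neighbours or from suspensor cells was not tested. All 8 endosperm markers that reached 1 RPKM and 10 of 11 seed coat markers were suspensor-high, with summed levels of 352 against 22.9 RPKM and 128 against 4.77 RPKM. Of those counted, IKU2, MEA, FIS2 and all seed coat markers but TT1 and TT4 were under 1 RPKM in the embryo proper. They were counted only through the suspensor library and could not have been embryo-high, so these counts are no test either. Where 10 RPKM was required, 5 endosperm and 4 seed coat markers were suspensor-high.

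Seed maturation is the phase in which the embryo stops dividing, stores oil and protein and prepares for drying and dormancy. LEC1 and its relative L1L are B subunits of the trimeric nuclear factor Y, which binds the CCAAT box, whereas LEC2, FUS3 and ABI3 carry the plant B3 domain, which binds the RY element, and together they activate one another and the storage genes. bZIP67 and bZIP53 are basic leucine zipper proteins that act with these factors at storage gene promoters, AGL15 is a MADS box protein of the embryo that promotes embryonic fate, and VAL1 and VAL2 are B3 proteins that silence the same programme after germination.

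In the libraries of the globular embryo the activators did not share one pattern. LEC1, L1L and FUS3 were higher in the suspensor library, by 2.84-, 15.7- and 5.12-fold, and ABI3 was higher in the embryo proper library by 9.04-fold. Of the repressors, VAL2 was 2.36-fold higher in the embryo proper library, and VAL1 was the most abundant of the regulators in both libraries. LEC2 and AGL15 differed by less than 2-fold, bZIP67 rested on 3 reads, and no level can be given for bZIP53.

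Of the 10 regulators, 8 reached 1 RPKM in at least 1 library and were counted on the scale of log2(RPKM + 1). Of these 8, 3 were suspensor-high (LEC1, L1L and FUS3), a count read against 29.3% of the 16975 genes tested, and 2 were embryo-high (ABI3 and VAL2), against 23.1%. The share past 2-fold was thus near that of all genes, so the counts are no result about the regulators as a group, and their median log2 ratio, suspensor over embryo proper, was 0.15, against 0.13 over all genes tested. The spread was wide, from −3.03 for ABI3, at the percentile 2.82 of all genes, to 3.83 for L1L. FUS3 lay at the percentile 90.5 and VAL2 at 19.4. With the 10 most abundant genes of each library left out and the libraries rescaled, the median over all genes moved to 0.41. VAL2 then no longer reached 2-fold, at −0.90.

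**Figure D1:**
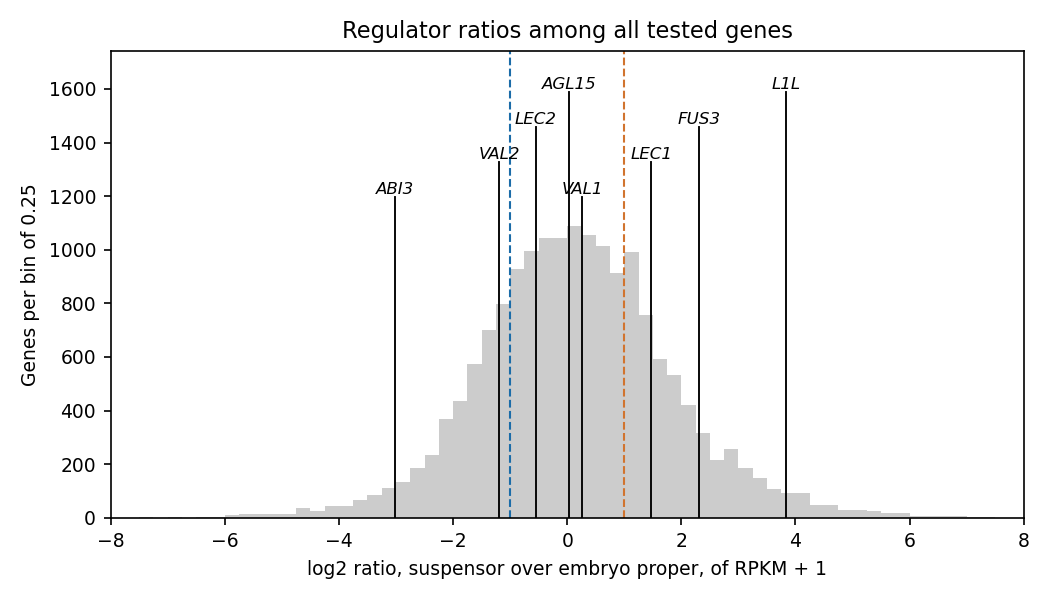
Histogram of the log2 ratio, suspensor over embryo proper, on RPKM + 1, over the 16975 genes tested, with a black line at each of the 8 regulators tested and dashed lines at 2-fold either way. ABI3, at −3.03, and L1L, at 3.83, stand in opposite tails, and AGL15 and VAL1 near the middle.

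The sequences just before the annotated starts of the 4 genes with the largest differences are shown because 3 of them share a direction and the fourth, ABI3, has the opposite one. They are the 250 bases before each gene start in the RefSeq annotation of TAIR10.1, a genome of the accession Columbia, so that of Ws-0 may differ, and the deposited files carry no positions of their own. Each is printed 5′ to 3′ on the strand of its gene, and capitals mark the RY core CATGCA and the CCAAT box on either strand. The G-box CACGTG, a site of basic leucine zipper proteins, was searched as well. The windows are chr1:7729650-7729899 on the minus strand for LEC1, chr5:19314528-19314777 on the plus strand for L1L, chr3:9856213-9856462 on the minus strand for FUS3 and chr3:8997120-8997369 on the plus strand for ABI3.
LEC1: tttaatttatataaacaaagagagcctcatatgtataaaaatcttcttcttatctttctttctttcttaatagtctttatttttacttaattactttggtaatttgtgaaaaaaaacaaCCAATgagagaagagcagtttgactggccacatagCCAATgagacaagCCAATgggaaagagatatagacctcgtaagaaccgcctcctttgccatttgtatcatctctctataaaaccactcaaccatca
L1L: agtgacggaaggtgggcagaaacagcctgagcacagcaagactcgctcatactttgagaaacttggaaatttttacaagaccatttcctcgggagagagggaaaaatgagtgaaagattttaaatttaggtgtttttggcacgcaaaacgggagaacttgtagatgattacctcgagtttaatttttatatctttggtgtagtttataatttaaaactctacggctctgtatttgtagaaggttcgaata
FUS3: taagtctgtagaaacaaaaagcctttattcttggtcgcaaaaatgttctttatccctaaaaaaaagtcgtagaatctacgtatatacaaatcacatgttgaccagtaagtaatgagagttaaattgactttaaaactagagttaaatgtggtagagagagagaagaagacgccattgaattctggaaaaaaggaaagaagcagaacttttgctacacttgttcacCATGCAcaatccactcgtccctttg
ABI3: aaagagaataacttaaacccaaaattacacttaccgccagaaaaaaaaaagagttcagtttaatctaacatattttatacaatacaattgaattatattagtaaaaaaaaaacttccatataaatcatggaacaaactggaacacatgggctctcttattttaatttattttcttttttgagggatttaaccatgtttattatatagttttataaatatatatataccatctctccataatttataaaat

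The LEC1 window held 3 CCAAT boxes, beginning 131, 96 and 83 bases before the start. The FUS3 window held 1 RY core, 25 bases before the start. The windows of L1L and ABI3 held neither, and that of L1L lies inside the neighbouring gene AT5G47660. Over all 10 regulators, 4 had an RY core in these 250 bases (FUS3, bZIP67, AGL15 and VAL1), against 8.43% of the 27443 windows of nuclear protein-coding genes, and 2 had a CCAAT box (LEC1 and bZIP67), against 46.0%. None had a G-box, against 6.49%. In bZIP67 and VAL1 some of the RY cores overlap each other, since CATGCATGCA holds 3 of them over both strands. Within 1000 bases, 6 regulators had an RY core, against 32.2% of windows, 9 had a CCAAT box, against 89.9%, and none had a G-box, against 14.8%. LEC1 and ABI3 gained an RY core in the longer window, 587 and 942 bases before their starts. The genes with an RY core in 250 bases thus included FUS3, higher in the suspensor library, and AGL15 and VAL1, which differed by less than 2-fold. A match is a stretch of letters and not a shown binding site, and a window without one says nothing of the factor.

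**Figure D2:**
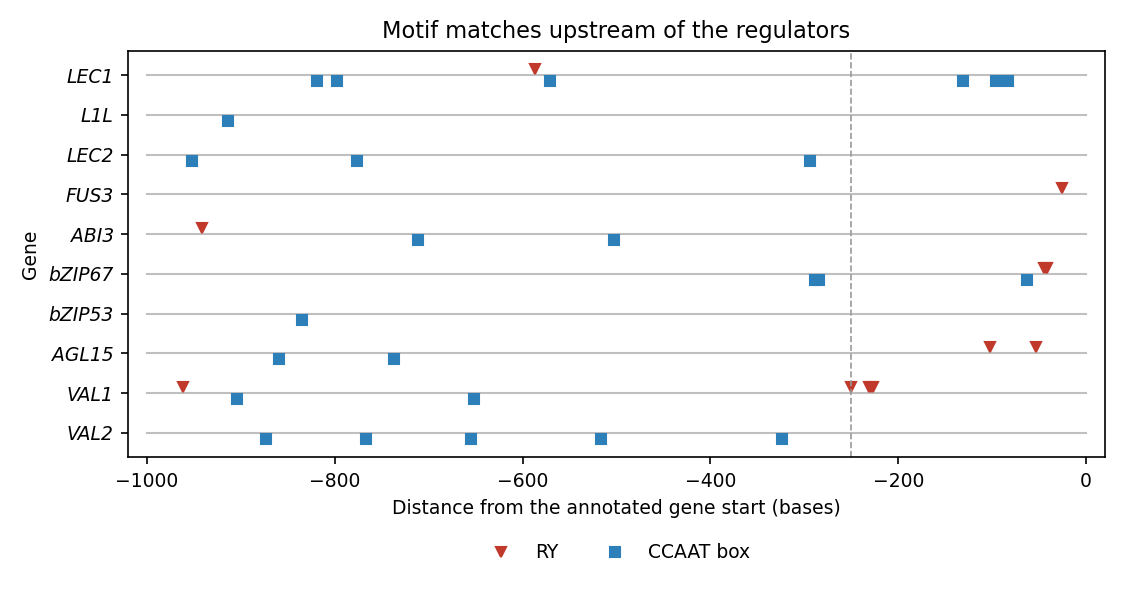
Matches to the RY core and the CCAAT box in the 1000 bases before the annotated start of each regulator, by distance from that start in bases; the dashed line marks 250 bases. LEC1 has 3 CCAAT boxes and FUS3 1 RY core to the right of that line, and L1L and ABI3 have no match there.

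The LEC1-type subunits were both higher in the suspensor library. LEC1 (AT1G21970), the founding regulator of embryonic identity, stood at 24.3 RPKM in the embryo proper (21.3 to 27.8, 222 reads) against 69.3 RPKM in the suspensor (62.3 to 76.8, 357 reads). Its ratio of 2.84 had an interval of 2.40 to 3.38, so the gap was wider than counting error. L1L (AT5G47670, NF-YB6), the closest relative of LEC1, stood at 8.59 RPKM in the embryo proper (6.78 to 10.7, 77 reads) against 135 RPKM in the suspensor (125 to 146, 685 reads). Its ratio of 15.7 (12.4 to 20.2) was the largest among the regulators and lay at the percentile 97.6 of all tested genes, where LEC1 lay at 80.5. L1L therefore made up 26.1% of the summed level of the pair in the embryo proper library and 66.1% in the suspensor library. Such a share is taken within a library and does not depend on how the libraries are scaled. The ends of the L1L gene overlap 2 neighbours in the annotation, AT5G47660 on the same strand and TRM10 (AT5G47680) on the other, by 116 and 124 bases that hold no coding sequence of L1L. Both neighbours had the opposite pattern to L1L, at 106 and 54.9 RPKM in the embryo proper against 39.0 and 13.6 in the suspensor.

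Among the B3 activators, FUS3 and ABI3 stood on opposite sides. FUS3 (AT3G26790), which controls storage and the balance of abscisic acid and gibberellin, stood at 25.6 RPKM in the embryo proper (22.8 to 28.7, 307 reads) against 131 RPKM in the suspensor (123 to 140, 888 reads), a ratio of 5.12 (4.49 to 5.84). ABI3 (AT3G24650), which carries the abscisic acid response of the seed, stood at 72.1 RPKM in the embryo proper (68.9 to 75.3, 1982 reads) against 7.97 RPKM in the suspensor (6.63 to 9.51, 124 reads), 9.04-fold higher in the embryo proper (7.53 to 10.9). LEC2 (AT1G28300), an activator of the other B3 genes and of auxin synthesis, stood at 11.9 RPKM in the embryo proper (10.1 to 13.8, 165 reads) against 7.77 RPKM in the suspensor (5.94 to 9.98, 61 reads). Its ratio of 1.53 in favour of the embryo proper (1.13 to 2.09) was wider than counting error and below 2-fold. The 3 levels summed to 110 RPKM in the embryo proper against 147 RPKM in the suspensor, so the sums were closer than the single genes. ABI3 made up 65.8% of the embryo proper sum and 5.43% of the suspensor sum, and FUS3 23.4% and 89.3%. Within the embryo proper library ABI3 was 2.81 times as abundant as FUS3 (2.49 to 3.18), and within the suspensor library FUS3 was 16.4 times as abundant as ABI3 (13.6 to 20.0).

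**Figure D3:**
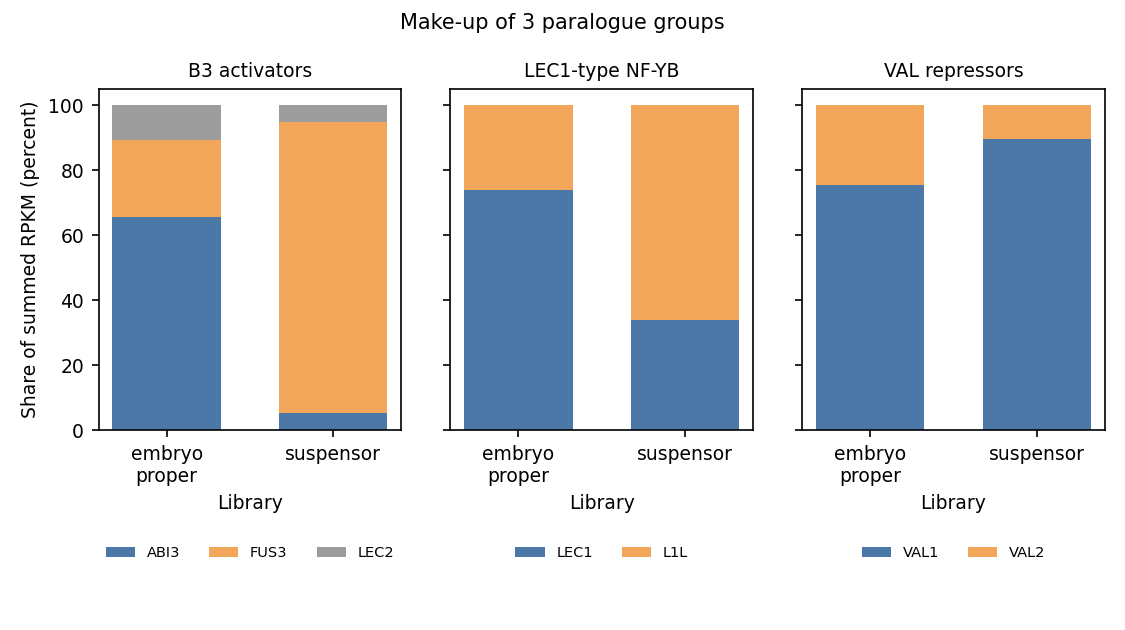
Share of the summed RPKM, in percent, of each gene within 3 groups of related regulators in the embryo proper and the suspensor library; each bar is 1 library. ABI3 holds 65.8% of the B3 activators in the embryo proper and FUS3 89.3% in the suspensor, and L1L goes from 26.1% of the LEC1-type pair to 66.1%.

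The higher suspensor levels of LEC1, L1L and FUS3 stood beside the endosperm and seed coat markers given above, with summed levels of 352 and 128 RPKM in that library. No endosperm marker was unlisted in either library, 2 of the 10, PHE1 and AGL36, stayed under 1 RPKM in both, and the highest level was 5.84 RPKM in the embryo proper (FWA) and 177 RPKM in the suspensor (SUC5). Of the 12 seed coat markers, 5 were unlisted in the embryo proper library and 1, TT16, was unlisted in both. The part of these tissues in the levels of LEC1, L1L and FUS3 was not tested. ABI3 and VAL2 had the opposite direction to those markers, and the part of these tissues in their suspensor levels was not tested either. In captured tissue of many cells, fewer cells with a transcript and less of it per cell cannot be told apart.

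Neither leucine zipper member gave a usable level. bZIP67 (AT3G44460, DPBF2), which acts with L1L at fatty acid and storage genes, was at 0.237 RPKM in the embryo proper (0.0488 to 0.692, 3 reads) and was absent from the suspensor file, where 3 reads would be 0.419 RPKM. Both values are at or under that limit, so no fold is given. bZIP53 (AT3G62420), which forms heterodimers at storage gene promoters, was listed in neither file, and this cannot be read as a level of 0. Its transcript has an upstream reading frame marked in the reference, and so do those of the related genes bZIP1, bZIP2, bZIP11 and bZIP44, and all 5 were listed in neither file. Of 83 genes with such a mark, 54 were listed in neither file, a share of 65.1% against 27.5% of the other nuclear protein-coding genes. The other 9 regulators carry no such mark.

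AGL15 (AT5G13790), which promotes somatic embryogenesis and the breakdown of gibberellin, stood at 57.0 RPKM in the embryo proper (52.6 to 61.8, about 592 reads) against 58.6 RPKM in the suspensor (52.6 to 65.2, about 344 reads). Its ratio of 1.03 (0.897 to 1.18) was within counting error, and its sign turned under other scalings, with a log2 ratio from −0.09 to 0.34.

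The repressors VAL1 and VAL2 were both present in both parts. VAL1 (AT2G30470, HSI2), which recruits silencing complexes to RY elements, stood at 134 RPKM in the embryo proper (130 to 138, 4040 reads) against 161 RPKM in the suspensor (155 to 168, 2753 reads), a ratio of 1.21 (1.15 to 1.27). VAL2 (AT4G32010, HSL1), which acts with VAL1, stood at 43.8 RPKM in the embryo proper (41.5 to 46.2, 1305 reads) against 18.6 RPKM in the suspensor (16.6 to 20.8, 313 reads), 2.36-fold higher in the embryo proper (2.08 to 2.68). Their sum was nearly level, at 178 and 180 RPKM, and VAL1 was 3.06 times as abundant as VAL2 in the embryo proper (2.87 to 3.26) and 8.68 times in the suspensor (7.72 to 9.79). Summed over LEC1, L1L, LEC2, FUS3 and ABI3, the activators stood at 143 RPKM in the embryo proper against 351 RPKM in the suspensor, so that the ratio of the VAL sum to the activator sum was 1.25 and 0.512. LEC2 and ABI3 ran opposite to that activator sum. The part of endosperm and seed coat in the sum was not tested.

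**Figure D4:**
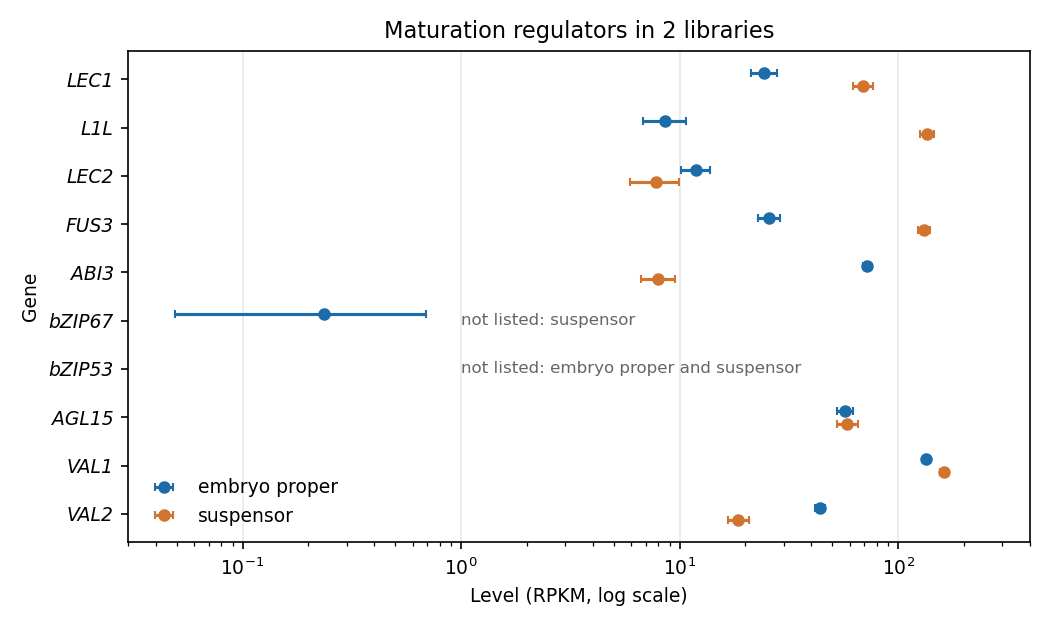
Level of each regulator in RPKM on a log axis, in the embryo proper and the suspensor library, with 95% exact Poisson intervals of the recovered reads. L1L moves furthest to the right in the suspensor (8.59 to 135 RPKM), ABI3 furthest to the left (72.1 to 7.97 RPKM), and the AGL15 values overlap.

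The order of the regulators by level differed between the libraries. In the embryo proper it ran VAL1, ABI3, AGL15, VAL2, FUS3, LEC1, LEC2 and L1L, and FUS3 and LEC1 were the neighbours whose ratio, 1.05, had an interval (0.883 to 1.26) that included 1. In the suspensor it ran VAL1, L1L, FUS3, LEC1, AGL15, VAL2, ABI3 and LEC2. There the ratio of L1L to FUS3 was 1.03 (0.932 to 1.14) and that of ABI3 to LEC2 was 1.03 (0.749 to 1.42), both within counting error. The remaining neighbours in each order differed by more than counting error. By rank among all listed genes, L1L stood at 9268 of 18071 in the embryo proper against 1210 of 18672 in the suspensor, FUS3 at 4906 and 1245, and LEC1 at 5092 and 2316. ABI3 went from 2151 to 10240, while VAL1 was at 1228 and 1017.

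The A and C subunits that join LEC1 and L1L in nuclear factor Y were listed in both libraries, except NF-YA10, listed in neither file, and NF-YC7, absent from the embryo proper file. Unless another setting is named, counts in this and the other lists are read against the same 29.3% and 23.1% of all genes. Their medians are read against 0.13. The C subunits, which pair with a B subunit before DNA binding, had 5 of 10 tested genes suspensor-high and 0 embryo-high. Their median log2 ratio was 1.05, or 0.82 with NF-YC7 set at 3 reads in the embryo proper. With 5 RPKM added in place of 1, 3 were suspensor-high, against 17.8% of all genes in that setting. NF-YC2 (AT1G56170), a C subunit known to work with LEC1, was the most abundant, at 144 RPKM in the embryo proper against 245 in the suspensor, and NF-YC6 (AT5G50480) and NF-YC3 (AT1G54830) stood at 13.8 and 10.8 RPKM against 40.7 and 32.1. The A subunits, which contact the CCAAT box, had 5 of 9 tested genes suspensor-high and 2 embryo-high, with a median of 1.32. NF-YA6 (AT3G14020) stood at 2.71 RPKM in the embryo proper against 30.6 in the suspensor and NF-YA2 (AT3G05690) at 3.63 and 30.1, whereas NF-YA4 (AT2G34720) stood at 41.8 and 7.46. NF-YA1 (AT5G12840), the most abundant A subunit, stood at 61.5 and 86.8 RPKM.

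The other B subunits hold the same position in the trimer as LEC1 and L1L. Of 8 such genes 4 were tested, 1 was suspensor-high and 0 were embryo-high, and the median was −0.22. NF-YB1 (AT2G38880) stood at 267 RPKM in the embryo proper against 203 in the suspensor, NF-YB10 (AT3G53340) at 127 and 69.7, and NF-YB2 (AT5G47640) at 5.35 and 31.1. Of the summed level of the 10 B subunit genes, LEC1 and L1L together made up 7.30% in the embryo proper library and 38.9% in the suspensor library. NF-YB3, NF-YB4, NF-YB5 and NF-YB7 were listed in neither file.

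Of 15 other leucine zipper genes, partners of bZIP53 or relatives of bZIP67, 11 were tested, 3 were embryo-high and 1 was suspensor-high, with a median of −0.23. ABF4 (AT3G19290), an abscisic acid response factor, stood at 391 RPKM in the embryo proper against 75.7 in the suspensor. EEL (AT2G41070), which shares late embryo targets with ABI5, stood at 25.7 and 1.94 RPKM, a ratio of 13.3 (7.55 to 27.8). ABI3 was embryo-high too, as were 23.1% of all genes tested, and a link between these genes was not tested. ABI5 (AT2G36270), the partner of ABI3 in late maturation, was low, at 1.06 RPKM on 18 reads in the embryo proper against 0.105 RPKM on 1 read in the suspensor. AREB3 (AT3G56850) stood at 45.6 and 82.0 RPKM, and bZIP25 (AT3G54620), a dimer partner of bZIP53, at 15.1 and 34.0.

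Of 8 tested regulators that act on these genes or on their products 5 were suspensor-high and 0 embryo-high, with a median of 1.14. With 5 RPKM added in place of 1, or at a 4-fold threshold, 3 were suspensor-high, against 17.8% and 12.3% of all genes in those settings. BBM, SPL10 and SPL11 differed by less than 2-fold on RPKM + 1. MYB118 (AT3G27785), a regulator of endosperm maturation, stood at 18.4 RPKM in the embryo proper against 162 in the suspensor, a ratio of 8.80 (7.78 to 9.98). The summed endosperm markers were also higher in the suspensor library, and the part of endosperm in the MYB118 level was not tested. AGL18 (AT3G57390), the relative of AGL15, stood at 5.20 and 50.2 RPKM, a ratio of 9.64 (7.13 to 13.3), so that the 2 MADS box genes had unlike ratios. KIN11 (AT3G29160), a catalytic subunit of the energy-sensing kinase SnRK1, stood at 10.2 and 83.0 RPKM. BBM (AT5G17430), an AP2-type activator of LEC1, LEC2, FUS3 and ABI3, was level, at 46.6 and 47.1 RPKM, a ratio of 1.01 (0.913 to 1.12).

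Of 13 repressors of the programme 3 were suspensor-high and 3 embryo-high, with a median of −0.01, which is no more than the shares of all genes. Without the 10 most abundant genes of each library 6 were suspensor-high and 2 embryo-high, against 35.2% and 18.3% of all genes in that setting. VAL3 (AT4G21550), the third VAL gene, was low, at 1.47 RPKM in the embryo proper against 5.00 in the suspensor. SAP18 (AT2G45640), a member of histone deacetylase complexes that binds VAL1, was abundant, at 969 and 354 RPKM, and HDA19 (AT4G38130), a histone deacetylase, stood at 447 and 275 RPKM. ASIL1 (AT1G54060), a trihelix repressor of maturation genes, stood at 161 and 77.3 RPKM. The Polycomb proteins went both ways: LHP1 (AT5G17690) stood at 65.4 and 14.8 RPKM, EMF1 (AT5G11530) at 13.5 and 54.8, and BMI1A (AT2G30580), a ring finger protein that VAL1 recruits, at 14.6 and 49.8.

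Of 21 tested genes known as targets of these regulators 6 were suspensor-high and 7 embryo-high, with a median of 0.03, also near the shares of all genes. With 5 RPKM added, 2 were suspensor-high and 5 embryo-high, against 17.8% and 15.0% of all genes in that setting. Storage protein genes were low in both parts, with summed levels of 4.09 and 5.82 RPKM over 4 albumin genes and 6.24 and 11.1 RPKM over 3 cruciferin genes. Of the 3 oleosin genes, whose products coat oil bodies, OLEO1 (AT4G25140) had 51.7 and 12.3 RPKM and OLEO4 (AT3G27660) 8.87 and 1.45, whereas OLEO2 (AT5G40420) was at 5.11 and 4.64. EM6 (AT2G40170), a late embryo protein and a target of ABI3, stood at 21.7 and 4.49 RPKM, on 77 and 9 reads. EM1 (AT3G51810), of the same list, was at 3.43 and 4.85 RPKM. ABI4 (AT2G40220), an abscisic acid response factor, stood at 12.7 and 2.11 RPKM. YUC4 (AT5G11320), an auxin synthesis gene that LEC2 activates, had 12.98 RPKM in the embryo proper library and was absent from the suspensor file, a difference of at least 38.4-fold against a limit of 3 reads. On the other side, BCCP2 (AT5G15530), a subunit of the enzyme that starts fatty acid synthesis, had 24.2 RPKM in the embryo proper against 112 in the suspensor, a ratio of 4.65. GA3OX2 (AT1G80340), a gibberellin synthesis gene that FUS3 represses, stood at 0.377 and 4.26 RPKM, on 5 and 32 reads. WRI1 (AT3G54320), the regulator of oil synthesis downstream of LEC1 and LEC2, stood at 30.8 and 46.2 RPKM.

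**Figure D5:**
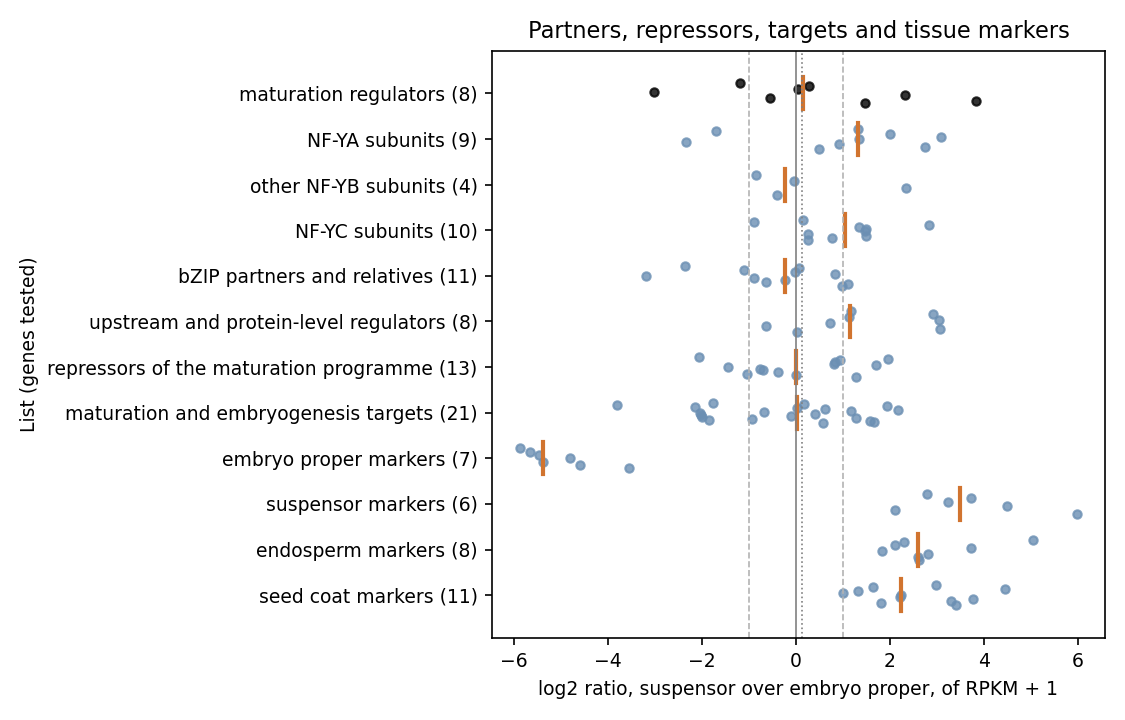
Log2 ratio, suspensor over embryo proper, on RPKM + 1, of each tested gene in the regulators and in lists of partners, repressors, targets and tissue markers; orange bars are list medians, the dotted line is the median of all genes and dashed lines mark 2-fold. The regulators run from −3.03 to 3.83, the embryo proper markers have a median of −5.39 and the endosperm and seed coat markers medians of 2.61 and 2.23, the latter 2.04 with unlisted genes at 3 reads.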

How the data were processed

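Plants were grown at 20 °C in continuous light, seeds were fixed and embedded in paraffin, and regions were cut from sections of 5 or 7 μm, per the labels' protocols. From 15 ng of RNA the cDNA was amplified, 150 ng of cDNA entered the library, and 15 cycles of PCR followed. The authors deposited RPKM per gene, per the file headers, and listed only genes above 0. HTSeq 0.6.1 and HISAT2 2.0.6 appear, without their roles, in the submitters' processing notes, with TAIR10 as the build. Not given in the sources used here: strand, the treatment of reads with several matches, and gene length.

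Reads were recovered as RPKM times the longest coding length of the RefSeq annotation of TAIR10.1, at the smallest library total that made low values whole. From genes with 1 model, 1383 embryo proper and 2232 suspensor values were checked, and 96.7% and 96.8% were within 0.05 of a whole read. AGL15, with 2 models, did not come out whole, so its reads are approximate. An unlisted gene was taken as 0, with a limit of 3 reads; bZIP53 and genes like it are an exception given in the text.

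Differences are log2((suspensor RPKM + 1)/(embryo proper RPKM + 1)), over genes that reached 1 RPKM in either library, those absent from 1 file included. Folds and their Clopper-Pearson intervals use no pseudocount. The regulators, the lists and the thresholds were chosen with earlier results of these data known. Genes named from a list were up to 3 with the largest difference each way and the 2 most abundant, beside a few chosen by name. Not each is printed, and the oleosin and EM1 values and the albumin and cruciferin sums were added after the values were seen. No gene is named for likeness of pattern, since 2 libraries give each gene 1 ratio. The alternatives tried were a pseudocount of 0.1 or 5 RPKM, a filter of 10 RPKM or none, 3 scalings and a 4-fold threshold. Leaving out the 10 most abundant genes of each library was added after the data were seen. Of 20029 identifiers, 19871 matched the reference. Python 3.11.15, scipy 1.17.1 and pandas 2.3.3 were used.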

Additional observations from a re-analysis of the deposited data

How the results depend on the processing

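The direction of LEC1, L1L, LEC2, FUS3, ABI3, VAL1 and VAL2 held under both pseudocounts and the 3 scalings. It also held with the 10 most abundant genes of each library removed. The direction of AGL15 did not hold throughout, as given above. At 4-fold, 2 regulators (L1L and FUS3) were higher in the suspensor and 1 (ABI3) in the embryo proper, against 12.3% and 8.32% of all genes, and over the 76 tested genes of the partner, upstream regulator, repressor and target lists together the counts were 8 and 8, against 26 and 15 at 2-fold. With a pseudocount of 5 RPKM, 17.8% and 15.0% of all genes passed 2-fold, and 15 of the 76 list genes were suspensor-high and 11 embryo-high. Without the 10 most abundant genes of each library, 1 regulator was embryo-high, since VAL2 dropped below the threshold, and 3 were suspensor-high. The shares of all genes were then 18.3% and 35.2%. Of the counts of single lists, 29 moved by more than 1.5 times and 169 did not. With 1 library per part, the spread between captures is unknown, and depth limits bZIP67, ABI5 and the storage genes. No paired analysis was possible because each group has 1 library.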

Other observations

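Genes whose transcript carries an upstream reading frame marked in the reference were often missing from both files, 54 of 83, against 7522 of 27361 other nuclear protein-coding genes. Among them were SAMDC (AT3G02470), an enzyme of polyamine synthesis, and SAC51 (AT5G64340), a regulator of stem growth. This was noticed after the values of bZIP53 had been seen, and the treatment of reads at such genes was not stated in the labels.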
